A study of Homo sapiens with 2 samples.

Results

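The AP-1 genes FOS, FOSB, FOSL1, FOSL2, JUN, JUNB, JUND and ATF3 were followed through EGF stimulation of MCF10A cells and through inhibition of MEK or PI3K. These 8 genes were taken by name as a family, with earlier results of these data known, from the 16387 genes listed in both count tables. All 8 were among the 11147 genes tested. MCF10A cells are immortalised and non-tumorigenic, were derived from human breast epithelium and need EGF to grow. Transcripts of single cells were counted as UMIs (unique molecular identifiers, 1 for each captured transcript) in 2 libraries, each of which pools the sample-tagged conditions of a biological replicate, so n = 2 libraries for every condition. The 8 conditions were unstimulated cells at 0 h, cells given EGF for 15 h, cells given EGF for 20 h or 30 h with a MEK inhibitor added at 15 h, cells given EGF for 20 h or 30 h with a PI3K inhibitor added at 15 h, and cells given EGF alone for 20 h or 30 h. Inhibited cells had thus been with their inhibitor for 5 h at 20 h and for 15 h at 30 h. The sources used here name neither the inhibitors nor their doses, nor whether cells with EGF alone received a vehicle. All cells came from a single established line, so the comparisons describe that line.

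AP-1 proteins bind DNA as pairs held together by a leucine zipper. FOS proteins pair with JUN proteins and not stably with each other, while JUN proteins and ATF3 can also pair among themselves. In epithelial cells growth factors reach these genes through RAS, RAF, MEK and ERK: ERK activates ternary complex factors on the FOS gene, and it also lengthens the life of FOS and of FRA1, the product of FOSL1. JNK, a kinase that responds to stress, activates JUN, and ATF3 is induced by many kinds of stress. PI3K acts through AKT and mTOR, and signals pass between that pathway and the ERK pathway in either direction.

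The tables held 2616 cells with 33089090 UMIs in library 1 and 2221 cells with 28542571 UMIs in library 2, and the libraries shared 0 cell barcodes. Summed depth per condition ran from 213208 UMIs in the 29 unstimulated cells of library 2 to 8508781 UMIs in the 616 MEK-inhibited cells at 30 h in library 2. All 9 listed markers of basal breast epithelium had UMIs in every sum, with KRT14, a basal keratin, at 6740.1 to 13766.8 CPM (a gene's share of all UMIs in the cells of a library and condition, scaled to 1000000). Of 11 listed markers of other cell types 6 were in both tables, with a summed level of 93.8 to 99.1 CPM in unstimulated cells and 13.8 to 54 CPM in all other conditions. DCN, which encodes the matrix proteoglycan decorin, stood at 6.3 to 93.8 CPM and was the highest of the 6 in every sum. LYZ and PDGFRB, markers of myeloid cells and pericytes, were at 0 in 12 of 16 sums each.

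In GENCODE v29 on GRCh38 all 8 are protein-coding. FOS lies at chr14:75278774-75282230, FOSB at chr19:45467995-45475179, FOSL1 at chr11:65892049-65900573 and FOSL2 at chr2:28392448-28417312. JUN lies at chr1:58780788-58784327, JUNB at chr19:12791496-12793315, JUND at chr19:18279760-18281622 and ATF3 at chr1:212565334-212620777. Promoter windows from RefSeq on GRCh38.p14, the 250 bases before a gene's start, were matched for 7 of the 8 genes. The last 120 bases before the start are shown for 6 of them, because 5 of these 6 hold part of the cAMP response element or a close variant of it between 60 and 87 bases before the start. RefSeq and GENCODE place some starts differently, so the 250-base window of FOS and the first of ATF3 reach into the GENCODE span of the gene, and that of FOSB by 1 base. The windows of FOSL2 and JUN and the second of ATF3 lie wholly within that span. Capitals mark TGACGT or its reverse complement ACGTCA, and in JUN the related 8 letters TGACATCA. Each is written 5′ to 3′ on the gene's own strand.
FOS, chr14:75278708-75278827, plus strand: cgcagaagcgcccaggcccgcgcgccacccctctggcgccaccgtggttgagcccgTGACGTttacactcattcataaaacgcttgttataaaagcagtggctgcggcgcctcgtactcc
FOSB, chr19:45467876-45467995, plus strand: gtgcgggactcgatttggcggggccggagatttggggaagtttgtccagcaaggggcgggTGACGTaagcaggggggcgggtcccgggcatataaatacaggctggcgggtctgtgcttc
FOSL2, chr2:28392738-28392857, plus strand: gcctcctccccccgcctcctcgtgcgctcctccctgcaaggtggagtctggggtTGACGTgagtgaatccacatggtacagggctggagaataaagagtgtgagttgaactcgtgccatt
JUN, chr1:58784048-58784167, minus strand: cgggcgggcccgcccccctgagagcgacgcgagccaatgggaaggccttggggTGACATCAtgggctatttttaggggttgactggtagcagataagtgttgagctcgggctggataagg
JUNB, chr19:12791366-12791485, plus strand: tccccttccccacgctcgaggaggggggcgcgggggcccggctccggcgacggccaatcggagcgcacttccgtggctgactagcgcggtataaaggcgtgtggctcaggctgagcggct
JUND, chr19:18281623-18281742, minus strand: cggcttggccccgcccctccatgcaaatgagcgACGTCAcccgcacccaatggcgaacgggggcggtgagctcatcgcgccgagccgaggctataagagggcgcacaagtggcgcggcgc

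The 6 letters TGACGT, read on either strand, began 64 bases before the start in FOS, 60 bases before it in FOSB and 66 bases before it in FOSL2. In JUND they lay 87 bases before the start, and again within the full element TGACGTCA that begins 200 bases before it. Of 35116 RefSeq windows of the same length 7.1% hold TGACGT and 1.65% hold TGACGTCA. TGACATCA began 67 bases before the start in JUN and 123 bases before it in the first of the windows listed for ATF3, and 2.37% of windows hold it. TGACGT and TGACATCA were added to the search after the windows had been seen. No window of the 7 genes held the AP-1 site (TGACTCA or TGAGTCA, in 4.2% of windows) or the CArG box that serum response factor binds (in 1.16%), and JUNB held none of the 5 motifs. These matches describe letters, and no binding was measured. The search covered only the 250 bases before each start, so it could not find sites further upstream.

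Across the 8 conditions the 8 genes fell into different patterns, which the plot of CPM by condition shows. Unstimulated cells had the highest level of all genes but FOSL1 in both libraries. FOSL1 was the exception: it was highest with EGF alone (at 20 h in library 1 and 30 h in library 2), and lowest with the MEK inhibitor at 30 h in both. The span between the highest and the lowest condition was 8.21-fold in library 1 and 5.87-fold in library 2 for FOSL1, 6.17-fold and 5.21-fold for FOSL2 and 6.3-fold and 5.48-fold for JUNB. FOS spanned 3.24-fold and 2.59-fold, JUND 3.89-fold and 1.98-fold, and ATF3 3.16-fold and 3.54-fold.

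**Figure D1:**
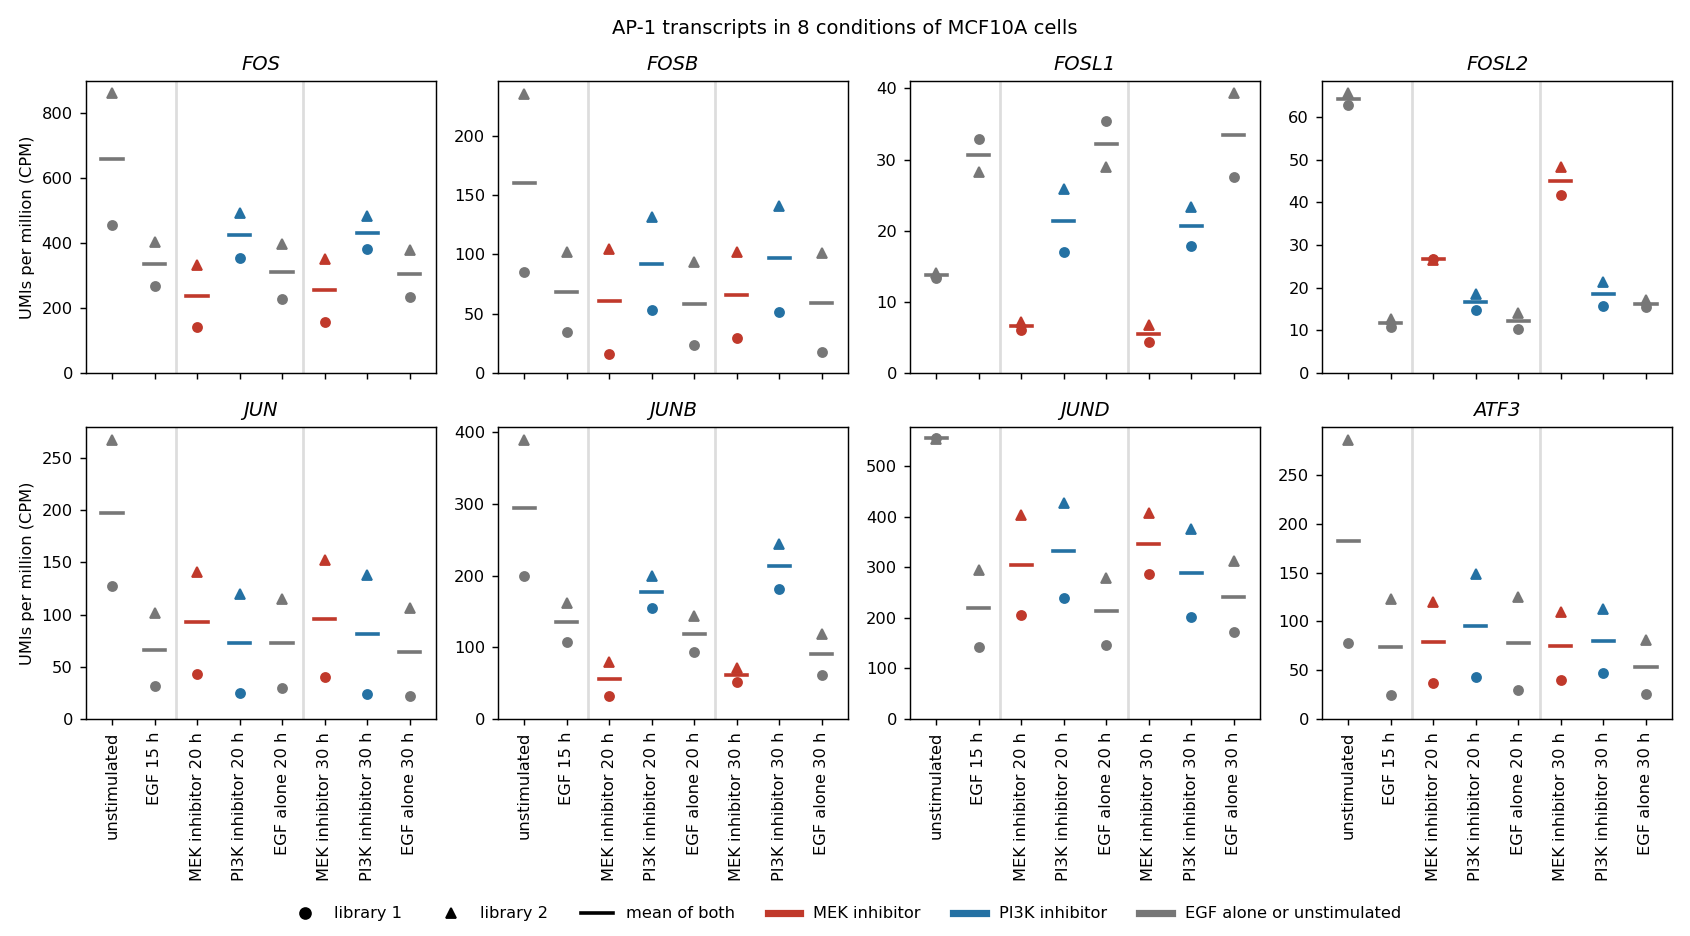
CPM (linear axis, a scale of its own for each gene) of the 8 AP-1 genes in the 8 conditions, with library 1 as circles, library 2 as triangles and the mean of both as bars. FOSL1 lies at 4.31 to 7.2 CPM in MEK-inhibited cells and at 27.5 to 39.3 CPM with EGF alone at 20 h and 30 h, FOSL2 shows the reverse order, and FOSB, JUN and ATF3 are split by library in every condition.

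Ranked by mean level, FOSL1 formed steps that its libraries did not bridge. EGF at 30 h, 20 h and 15 h stood together at means of 33.4, 32.2 and 30.6 CPM, the PI3K inhibitor at 20 h and 30 h followed at 21.4 and 20.6 CPM, unstimulated cells at 13.7 CPM, and the MEK inhibitor at 20 h and 30 h came last at 6.64 and 5.5 CPM. FOSL2 ran from unstimulated cells at 64.2 CPM over the MEK inhibitor at 30 h (45 CPM) and at 20 h (26.6 CPM), each apart from the next, to EGF at 15 h at 11.7 CPM. For FOS, FOSB, JUN, JUNB and ATF3 every condition overlapped its neighbour in the ranking, and for JUND all did except unstimulated cells, which stood above the rest.

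At 20 h, after 5 h of MEK inhibition, FOSL1 and JUNB fell and FOSL2 rose relative to EGF alone. FOSL1, which encodes FRA1, a FOS protein without the strong activation domain of FOS itself, had 6.08 and 7.2 CPM in libraries 1 and 2 with the MEK inhibitor, against 35.4 and 29 CPM with EGF alone. Neither library came near the other group, and the fitted log2 change was -2.29 (SE 0.23, adjusted p = 8.8e-14; edgeR quasi-likelihood test, Benjamini-Hochberg over 11147 genes, threshold 0.05). FOSL2, the gene of the related FRA2, had 26.6 and 26.5 CPM with the MEK inhibitor, against 10.2 and 14.1 CPM with EGF alone, a log2 change of 1.22 (SE 0.20, adjusted p = 1.2e-06). The 2 FRA genes thus moved apart within the same cells' sums.

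JUNB, whose product can both replace and oppose JUN, had 31.6 and 79.2 CPM with the MEK inhibitor at 20 h, against 93.9 and 144 CPM with EGF alone. It was lower within each library and the groups did not overlap (log2 change -1.05, SE 0.16, adjusted p = 6.3e-05). These 3 genes are 3 of 8 members called, 1 higher and 2 lower, where 12.6% of all genes tested were called. The other 5 did not pass: FOS stood at a log2 change of -0.37 (SE 0.22), FOSB at 0.12 (SE 0.34), JUN at 0.43 (SE 0.28), JUND at 0.58 (SE 0.23) and ATF3 at 0.15 (SE 0.14). Fitted without a term for the library, FOSL1 and FOSL2 stayed called and JUNB did not (adjusted p = 0.19), since that fit counts the gap between libraries as spread within a condition.

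At 30 h, after 15 h of the MEK inhibitor, FOSL1 was again lower and FOSL2 higher than with EGF alone, and JUN, JUND and ATF3 also rose. FOSL1 had 4.31 and 6.7 CPM with the MEK inhibitor, from 19 and 57 UMIs in all, against 27.5 and 39.3 CPM with EGF alone. That is a log2 change of -2.37 (SE 0.19, adjusted p = 1.1e-19). FOSL2 had 41.7 and 48.2 CPM with the MEK inhibitor, against 15.5 and 17 CPM with EGF alone (log2 change 1.65, SE 0.15, adjusted p = 1.5e-17). Both genes kept clear of overlap, as at 20 h.

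JUND, a JUN gene known for steady transcription in resting cells, had 286 and 407 CPM with the MEK inhibitor at 30 h, against 172 and 312 CPM with EGF alone (log2 change 0.73, SE 0.22, adjusted p = 0.032). JUN had 40.6 and 152 CPM with the MEK inhibitor, against 21.6 and 106 CPM with EGF alone (log2 change 0.80, SE 0.26, adjusted p = 0.042). ATF3 had 39.9 and 110 CPM with the MEK inhibitor, against 26.1 and 80.8 CPM with EGF alone (log2 change 0.69, SE 0.14, adjusted p = 6.4e-05). In all 3 genes the groups overlapped, because library 2 was high in both conditions, while each library by itself was higher with the inhibitor.

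JUNB at 30 h rested on library 2. It had 51.5 and 71 CPM with the MEK inhibitor, against 61.4 and 119 CPM with EGF alone, and the log2 change was -0.38 (SE 0.14, adjusted p = 0.043), with -0.09 in library 1 alone and -0.57 in library 2 alone. This call was also lost by DESeq2 (adjusted p = 0.18), with thinned cells and when only conditions at 20 h and 30 h were fitted, and that of JUN with thinned cells and on library totals. FOS at -0.13 (SE 0.21) and FOSB at 0.38 (SE 0.29) did not pass. In all 6 of 8 members were called at 30 h, 4 higher and 2 lower, against 38.3% of all genes tested. Without the library term 2 were called, FOSL1 and FOSL2, and the adjusted p was 0.69 for JUN, 0.52 for JUNB, 0.29 for JUND and 0.7 for ATF3.

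**Figure D2:**
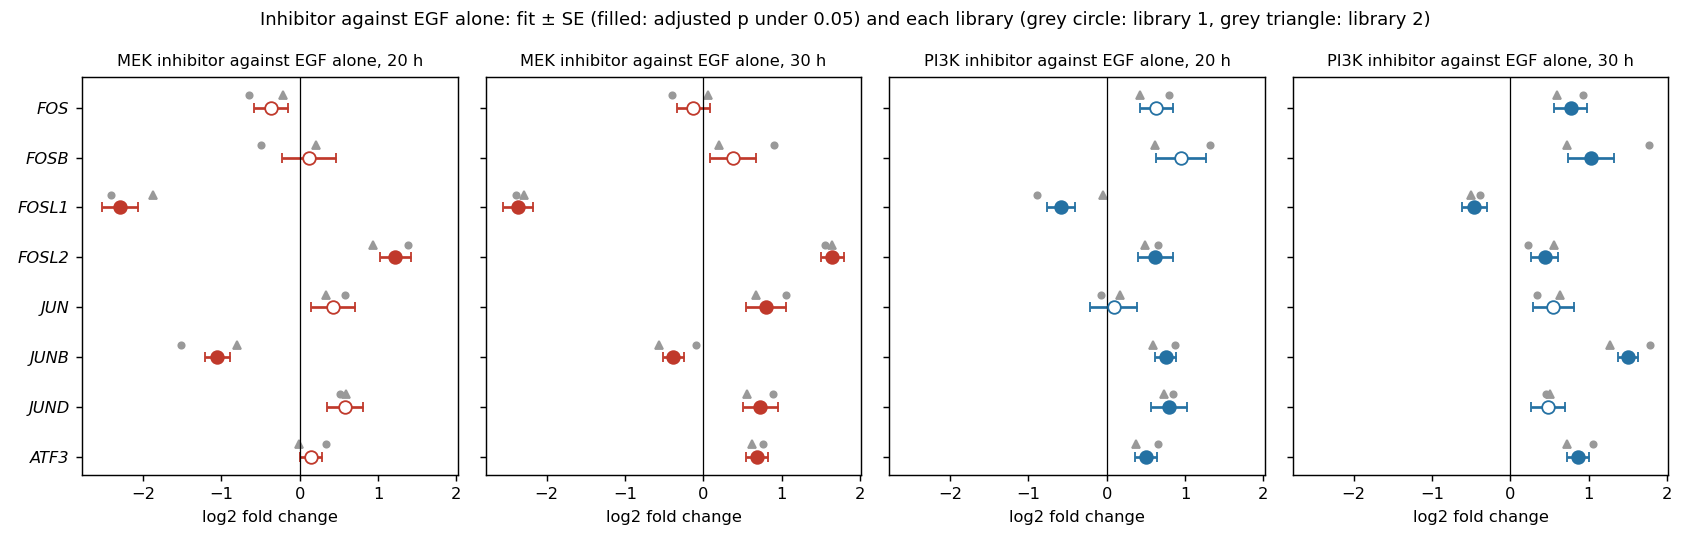
Log2 fold change of each gene with an inhibitor against EGF alone, at 20 h and 30 h: coloured circles with bars give the edgeR fit and its SE, filled where the adjusted p is under 0.05, and grey circles and triangles give libraries 1 and 2 alone. FOSL1 and FOSL2 stand at -2.37 and 1.65 with the MEK inhibitor at 30 h but at -0.46 and 0.44 with the PI3K inhibitor, where JUNB is highest at 1.5.

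With the PI3K inhibitor 4 of the 8 genes were called higher at 20 h and 5 at 30 h, relative to EGF alone, and FOSL1 was called lower at both times, though not by DESeq2 or with thinned cells. At 20 h JUNB had 155 and 199 CPM with the PI3K inhibitor, against 93.9 and 144 CPM with EGF alone (log2 change 0.75, SE 0.14, adjusted p = 0.00025). JUND had 239 and 427 CPM, against 147 and 279 CPM with EGF alone (log2 change 0.80, SE 0.23, adjusted p = 0.039). ATF3 had 42.6 and 149 CPM, against 29.7 and 125 CPM with EGF alone (log2 change 0.50, SE 0.14, adjusted p = 0.0071). JUNB was clear of overlap, while JUND and ATF3 overlapped between groups and rose within each library.

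Of the FRA genes, FOSL2 had 14.7 and 18.6 CPM with the PI3K inhibitor at 20 h, against 10.2 and 14.1 CPM with EGF alone (log2 change 0.62, SE 0.22, adjusted p = 0.028). FOSL1 had 17 and 25.8 CPM with the PI3K inhibitor, against 35.4 and 29 CPM with EGF alone (log2 change -0.58, SE 0.18, adjusted p = 0.012). Its fall came from library 1, at -0.89, while library 2 alone gave -0.05. FOS (0.63, SE 0.21, adjusted p = 0.074), FOSB (0.95, SE 0.32, adjusted p = 0.071) and JUN (0.09, SE 0.30, adjusted p = 0.88) did not pass. The count was 5 of 8 members, 4 higher and 1 lower, against 24% of all genes tested, and 0 without the library term, where adjusted p ran from 0.075 for FOSL2 to 0.98 for JUN. DESeq2 called 4, which were not the same: it called FOS (adjusted p = 0.0098), FOSB (0.0056), JUNB and JUND, and lost FOSL1 (0.14), FOSL2 (0.06) and ATF3 (0.064). FOSL1 and FOSL2 also lost their call with cells thinned to 6500 UMIs, FOSL2 and ATF3 on library totals, FOSL2 with no low-count filter and ATF3 without the 10% of cells with most UMIs. At an unadjusted p under 0.05, edgeR with the library term gave 7.

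By 30 h the rise of JUNB with the PI3K inhibitor was the largest among the 8 genes. JUNB had 182 and 244 CPM, against 61.4 and 119 CPM with EGF alone, a log2 change of 1.5 (SE 0.13, adjusted p = 2.6e-09), and it kept its call without the library term (adjusted p = 0.012). FOS, the founding immediate early gene of the family, had 382 and 482 CPM with the PI3K inhibitor, against 234 and 378 CPM with EGF alone (log2 change 0.77, SE 0.21, adjusted p = 0.021). FOSB, its close relative, had 51.6 and 141 CPM, against 17.3 and 101 CPM with EGF alone (log2 change 1.03, SE 0.29, adjusted p = 0.023), with 1.77 in library 1 alone and 0.73 in library 2 alone. JUNB and FOS did not overlap between groups, whereas FOSB did.

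ATF3 rose as well, with 47.3 and 113 CPM with the PI3K inhibitor at 30 h, against 26.1 and 80.8 CPM with EGF alone (log2 change 0.87, SE 0.14, adjusted p = 1.2e-06). FOSL2 had 15.6 and 21.4 CPM, against 15.5 and 17 CPM with EGF alone (log2 change 0.44, SE 0.17, adjusted p = 0.036), with 0.22 in library 1 alone and 0.56 in library 2 alone. FOSL1 had 17.9 and 23.3 CPM, against 27.5 and 39.3 CPM with EGF alone (log2 change -0.46, SE 0.16, adjusted p = 0.012). Neither FRA gene held its call at 30 h in every fit. FOSL2 was called in 3 of 9 fits, with log2 changes of 0.20 to 0.56 and adjusted p up to 0.36, and DESeq2 (adjusted p = 0.087), thinned cells and library totals were among those that lost it. FOSL1 lost its call by DESeq2 (adjusted p = 0.14), with thinned cells and without the library term, with log2 changes of -0.70 to -0.16 and adjusted p up to 0.62 over the 9 fits. JUN (0.55, SE 0.26) and JUND (0.48, SE 0.22) did not pass, which leaves 6 of 8 members called, 5 higher and 1 lower, against 39.8% of all genes tested. With a prior that is not robust edgeR also called JUN (adjusted p = 0.0021) and JUND (0.00099). Without the library term only JUNB was called, and on library totals, which do not correct for shifts in RNA composition, 3 members were, with every gene shifted by -0.235 on the log2 scale.

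Set directly against the PI3K inhibitor, the MEK inhibitor gave lower FOS, FOSL1 and JUNB and higher FOSL2 at both times. JUNB showed the widest difference at 20 h, with 31.6 and 79.2 CPM in MEK-inhibited cells, against 155 and 199 CPM in PI3K-inhibited cells (log2 difference -1.80, SE 0.16, adjusted p = 7.6e-09). For FOSL1 the log2 difference was -1.72 (SE 0.27, adjusted p = 2.9e-07), for FOS -1.0 (SE 0.22, adjusted p = 0.016) and for FOSL2 0.60 (SE 0.20, adjusted p = 0.023). FOS had 141 and 333 CPM in MEK-inhibited cells, against 355 and 493 CPM in PI3K-inhibited cells, so the groups did not overlap although neither inhibitor's own difference from EGF alone passed at 20 h. These were 4 of 8 members, against 22.4% of all genes tested, and 2 of them, FOSL1 and JUNB, without the library term. FOS differed by -1.44 in library 1 alone and -0.63 in library 2 alone, and FOSL2 was not called with thinned cells or without the 10% of cells with most UMIs. FOSB at -0.83 (SE 0.33, adjusted p = 0.12) did not pass in edgeR, with -1.81 in library 1 alone and -0.39 in library 2 alone. It was called by DESeq2 (adjusted p = 0.0078) and by edgeR with a prior that is not robust (0.0003).

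At 30 h the same 4 genes were called, against 41.8% of all genes tested. FOSL1 differed by -1.91 (SE 0.20, adjusted p = 4.3e-14) on the log2 scale, JUNB by -1.87 (SE 0.13, adjusted p = 4.7e-11), FOSL2 by 1.21 (SE 0.14, adjusted p = 7.2e-13) and FOS by -0.90 (SE 0.21, adjusted p = 0.0099). FOS alone among them lost its call without the library term (adjusted p = 0.17), and its log2 difference was -1.33 in library 1 alone and -0.54 in library 2 alone. JUN, JUND and ATF3 differed by 0.25 (SE 0.24), 0.24 (SE 0.21) and -0.18 (SE 0.13), and FOSB by -0.65 (SE 0.27), none past the threshold. FOSB was called by DESeq2 (adjusted p = 0.041) and by edgeR with a prior that is not robust (0.00023).

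Whether an inhibitor's difference from EGF alone changed between 20 h and 30 h was tested as an interaction. For the PI3K inhibitor the difference grew for JUNB, by 0.74 on the log2 scale (SE 0.19, adjusted p = 0.019), the single member called where 6.11% of all genes were. JUNB had 182 and 244 CPM with the PI3K inhibitor at 30 h, against 155 and 199 CPM with it at 20 h, while with EGF alone it had 61.4 and 119 CPM at 30 h, against 93.9 and 144 CPM at 20 h. Neither of these steps passed by itself, at 0.32 (adjusted p = 0.12) with the PI3K inhibitor and -0.42 (adjusted p = 0.068) with EGF alone. The call was lost without the library term (adjusted p = 0.72), on library totals, and when only conditions at 20 h and 30 h were fitted.

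For the MEK inhibitor 0 of 8 members were called in the interaction, where 5.88% of all genes were. At an unadjusted p under 0.05 edgeR gave 2, and DESeq2 called 0. The largest value was 0.67 for JUNB (SE 0.22, adjusted p = 0.072), with 1.44 in library 1 and 0.23 in library 2. Within MEK-inhibited cells FOSL2 kept rising, with 41.7 and 48.2 CPM at 30 h, against 26.6 and 26.5 CPM at 20 h (log2 change 0.87, SE 0.15, adjusted p = 1.8e-06). It was the single member called between those times, where 21.6% of all genes were. Within PI3K-inhibited cells 0 members were called between 20 h and 30 h, where 11.6% of all genes were, with 1 at an unadjusted p under 0.05 and 0 by DESeq2.

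Cells at 15 h of EGF show the state in which the inhibitors were added. Relative to it, FOSL1 fell by 20 h with the MEK inhibitor (6.08 and 7.2 CPM, against 32.9 and 28.3 CPM at 15 h; log2 change -2.37, SE 0.25, adjusted p = 2.1e-13). FOSL2 rose (26.6 and 26.5 CPM, against 10.8 and 12.6 CPM at 15 h; 1.17, SE 0.22, adjusted p = 1.4e-05) and JUNB fell (31.6 and 79.2 CPM, against 107 and 162 CPM at 15 h; -1.30, SE 0.17, adjusted p = 4.1e-06). These were 3 of 8 members, against 21.3% of all genes. The PI3K inhibitor at 20 h also gave 3 of 8, against 20% of all genes, with JUNB higher by 0.51 (SE 0.15, adjusted p = 0.016), ATF3 higher by 0.72 (SE 0.16, adjusted p = 0.0011) and FOSL1 lower, at -0.65 (SE 0.19, adjusted p = 0.01). Those 3 were not called without the library term, with adjusted p of 0.45, 0.76 and 0.16, nor was JUNB with the MEK inhibitor (0.071). ATF3 with the PI3K inhibitor stood at 0.87 in library 1 alone and 0.38 in library 2 alone and was lost without the 10% of cells with most UMIs. FOSL1 stood at -0.85 in library 1 alone and -0.03 in library 2 alone, and DESeq2 called neither it (adjusted p = 0.13) nor JUNB (0.055). The comparisons with 15 h and with EGF alone share their inhibited cells.

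At 15 h of EGF FOSL1 differed from unstimulated cells in the other direction than the rest of the family. After 15 h of EGF all 8 members differed from unstimulated cells, where 28.3% of all genes did: FOSL1 was higher, as were 14.2% of all genes, and the other 7 were lower, as were 14.1%. FOSL1 had 32.9 and 28.3 CPM at 15 h of EGF, against 13.3 and 14.1 CPM in unstimulated cells, where it had 19 and 3 UMIs (log2 change 1.07, SE 0.32, adjusted p = 0.0061; 0.15 with cells thinned to 6500 UMIs). FOSL2 had 10.8 and 12.6 CPM at 15 h, against 62.8 and 65.7 CPM in unstimulated cells (-2.70, SE 0.24, adjusted p = 1.4e-17). Neither gene overlapped between groups, though the 14.1 CPM of FOSL1 in unstimulated cells of library 2 rests on only 3 UMIs.

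Among the JUN genes JUND had 143 and 294 CPM at 15 h of EGF, against 556 and 553 CPM in unstimulated cells (-1.82, SE 0.26, adjusted p = 0.0013), with -2.18 in library 1 and -0.96 in library 2. JUN had 31.2 and 101 CPM, against 127 and 267 CPM in unstimulated cells (-1.98, SE 0.36, adjusted p = 0.0039). JUNB had 107 and 162 CPM, against 199 and 389 CPM in unstimulated cells (-1.17, SE 0.17, adjusted p = 1.3e-05). None of the 3 overlapped between groups.

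FOS had 268 and 404 CPM at 15 h of EGF, against 456 and 863 CPM in unstimulated cells (-1.05, SE 0.25, adjusted p = 0.016). FOSB had 34.7 and 102 CPM, against 85.1 and 235 CPM in unstimulated cells (-1.41, SE 0.42, adjusted p = 0.04), and ATF3 24.5 and 123 CPM, against 77.5 and 286 CPM (-1.67, SE 0.20, adjusted p = 6.7e-09). FOS did not overlap between groups, while FOSB and ATF3 did. Without the library term FOSL1, FOSL2 and JUND stayed called. Unstimulated cells were few, at 175 and 29, had fewer UMIs per cell (medians 7975 and 7024, against 12163.5 and 8400 at 15 h) and a larger mitochondrial share (medians 6.52% and 7.85%, against 5.16% and 6.15%). The summed level of markers of other cell types was 99.1 and 93.8 CPM in them, against 23.4 and 14.2 CPM at 15 h, and the part of these differences in the result was not tested. Outside the family 5 of 25 early response genes were higher and 14 lower at 15 h of EGF than in unstimulated cells, 0 of 20 dimer partners were higher and 10 lower, and of 23 AP-1 targets 9 were higher and 3 lower. These stand against the 14.2% and 14.1% of all genes above, which the 5 higher early response genes and the 3 lower targets lie near.

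Later in the EGF series the levels changed little. Between 15 h and 20 h 0 of 8 members were called, where 5.3% of all genes were, with 0 at an unadjusted p under 0.05 and 0 by DESeq2. ATF3 had 24.5, 29.7 and 26.1 CPM at 15 h, 20 h and 30 h of EGF in library 1 and 123, 125 and 80.8 CPM in library 2. It was called lower at 30 h than at 20 h (log2 change -0.48, SE 0.14, adjusted p = 0.026), as 1 of 8 members where 8.15% of all genes were called. The fall came from library 2, at -0.67, with -0.19 in library 1, and was lost by DESeq2, on library totals, without the library term (adjusted p = 0.97) and without the cells with most UMIs.

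At the level of cells the differences were also seen in the share of cells with the transcript. Cells were thinned to 6500 UMIs each, so that all cells had the same depth, and intervals are exact 95% binomial intervals that cover counting error only. FOSL1 and FOSL2 had means of 0.0346 to 0.329 UMIs per thinned cell in the groups compared here. At such low counts the share largely restates the pooled level and cannot show how a change is spread over cells. FOSL1 was found in 3.46% (1.74 to 6.1) and 4.92% (3.29 to 7.03) of MEK-inhibited cells at 30 h in libraries 1 and 2, against 10.8% (7.02 to 15.6) and 24.3% (19.7 to 29.3) of cells with EGF alone. FOSL2 was found in 23% (18.4 to 28) and 29.2% (25.5 to 33.1) of MEK-inhibited cells, against 10.3% (6.65 to 15.1) and 11.1% (7.88 to 15) with EGF alone. Each gene's intervals were apart between the groups in both libraries. Before thinning the FOSL1 shares were 5.2% and 8.6% with the MEK inhibitor, against 31.8% and 41% with EGF alone.

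JUNB was found in 62.6% (57.3 to 67.7) and 74.7% (70.4 to 78.7) of PI3K-inhibited cells at 30 h, against 30.5% (24.5 to 37) and 49.5% (44 to 55.1) with EGF alone. Before thinning these shares were 80.3% and 88.9%, against 56.3% and 77.9%. ATF3 was found in 24.7% (20.3 to 29.6) and 48.1% (43.4 to 52.8) of PI3K-inhibited cells, against 17.9% (13.1 to 23.6) and 34.2% (29 to 39.6) with EGF alone, so its intervals met in library 1. FOS was found in 84.2% and 94.7% of PI3K-inhibited cells, against 70.4% and 86.8% with EGF alone, so most cells of either group had it. Shares were not tested: with 2 libraries a side the smallest p of an exact two-sided permutation is 0.333, and no model of the shares over all conditions was fitted. These cells are all of a single line, so no cell type that lacks a gene was at hand to measure free RNA.

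**Figure D3:**
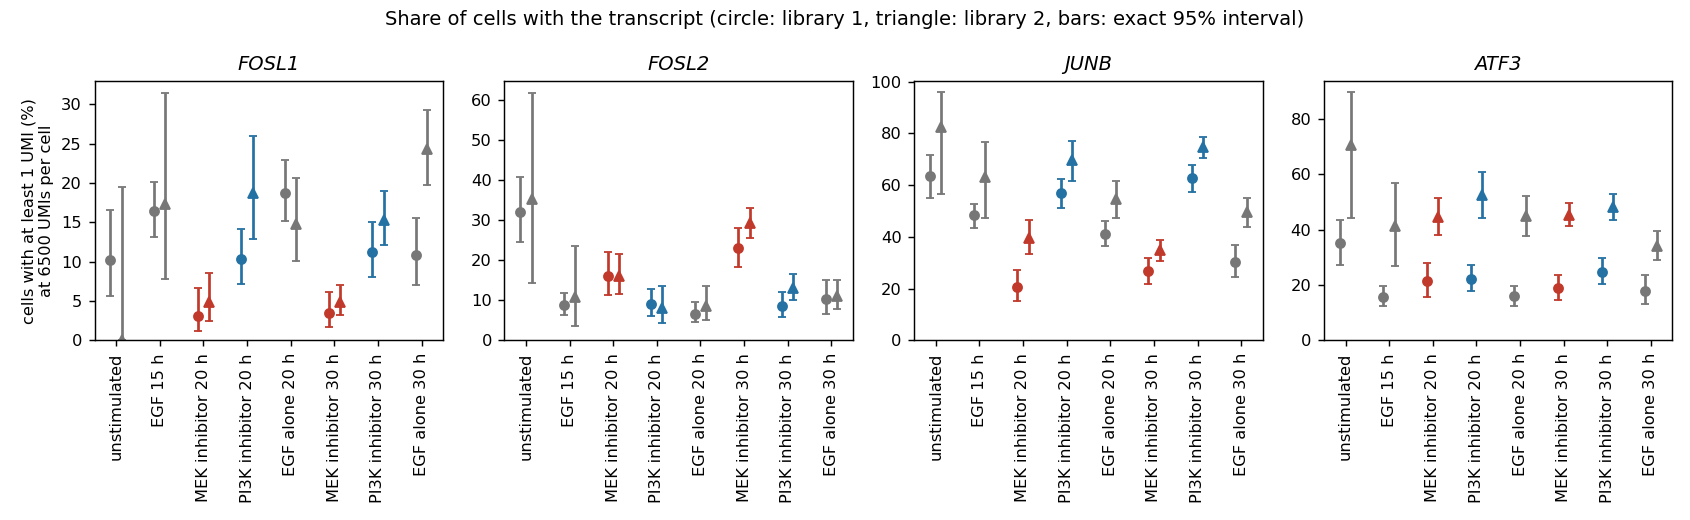
Share of cells, in percent, with at least 1 UMI of FOSL1, FOSL2, JUNB or ATF3 after thinning each cell to 6500 UMIs, by condition, with library 1 as circles, library 2 as triangles and exact 95% intervals as bars. FOSL1 is found in 3.46% and 4.92% of MEK-inhibited cells at 30 h and JUNB in 62.6% and 74.7% of PI3K-inhibited cells at 30 h.

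Cell cycle phase differs between these conditions, so levels were also taken within cells called to a single phase from S phase and G2/M transcripts. FOSL1 and JUNB were lower and FOSL2 was higher under the MEK inhibitor, relative to EGF alone, in both libraries and in each phase with at least 20 cells per group. Among G1-called cells at 20 h FOSL1 had 7.44 and 4.44 CPM with the MEK inhibitor, against 32.2 and 24.8 CPM with EGF alone. Among G2/M-called cells at 30 h it had 3.63 and 6.36 CPM with the MEK inhibitor, against 29.5 and 42.2 CPM with EGF alone. FOSL2 in those G2/M-called cells had 43 and 45.6 CPM with the MEK inhibitor, against 16.7 and 17.4 CPM with EGF alone. On the log2 scale FOSL1 stood between -2.95 and -1.5 and FOSL2 between 0.79 and 1.43 across those phases and libraries. The FOSL1 value nearest 0, from G1-called cells at 30 h in library 2, became -1.22 at 4000 UMIs per cell and -0.92 among cells at least 0.05 score units from a boundary, where 25 cells with EGF alone were left.

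The fall of JUNB with the MEK inhibitor at 30 h was present in both libraries within phases, where values use library totals. Over all cells library 1 had 51.5 CPM, against 61.4 CPM with EGF alone, and -0.09 on the log2 scale once corrected for RNA composition. Among G1-called cells of library 1 the log2 value of -0.49 became -0.23 at 4000 UMIs per cell. G1-called cells had 55.9 and 83.1 CPM with the MEK inhibitor, against 78 and 147 CPM with EGF alone, and G2/M-called cells 38.2 and 64.5 CPM, against 55.3 and 112 CPM. With the PI3K inhibitor at 30 h G1-called cells had 189 and 246 CPM of JUNB, against 78 and 147 CPM with EGF alone. JUNB was higher with the PI3K inhibitor in each phase and library, from 0.33 on the log2 scale among S-called cells at 20 h in library 2 to 1.37 among G2/M-called cells at 30 h in library 1. The difference among S-called cells at 20 h fell to 0.03 and 0.19 in libraries 1 and 2 for cells at least 0.05 from a boundary, and to 0.1 in library 2 at 4000 UMIs per cell. FOSL1 and FOSL2 did not keep a direction with the PI3K inhibitor: among S-called cells at 20 h FOSL1 stood at -1.1 in library 1 and 0.29 in library 2. ATF3 at 30 h, called higher with either inhibitor, did not keep its rise within phases. Among G1-called cells libraries 1 and 2 gave 0.64 and -0.31 with the PI3K inhibitor, and 0.69 and 0.01 with the MEK inhibitor. FOS with the PI3K inhibitor at 30 h gave 0.55 and -0.05 in G1-called cells, but 0.75 and 0.54 in G2/M-called cells. JUN and JUND with the MEK inhibitor and FOSB with the PI3K inhibitor, also called at 30 h, rose in each phase and library. Phase calls covered 4388 cells, of which 15% lay within 0.05 score units of a boundary, and free RNA in the partitions can enter them.

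**Figure D4:**
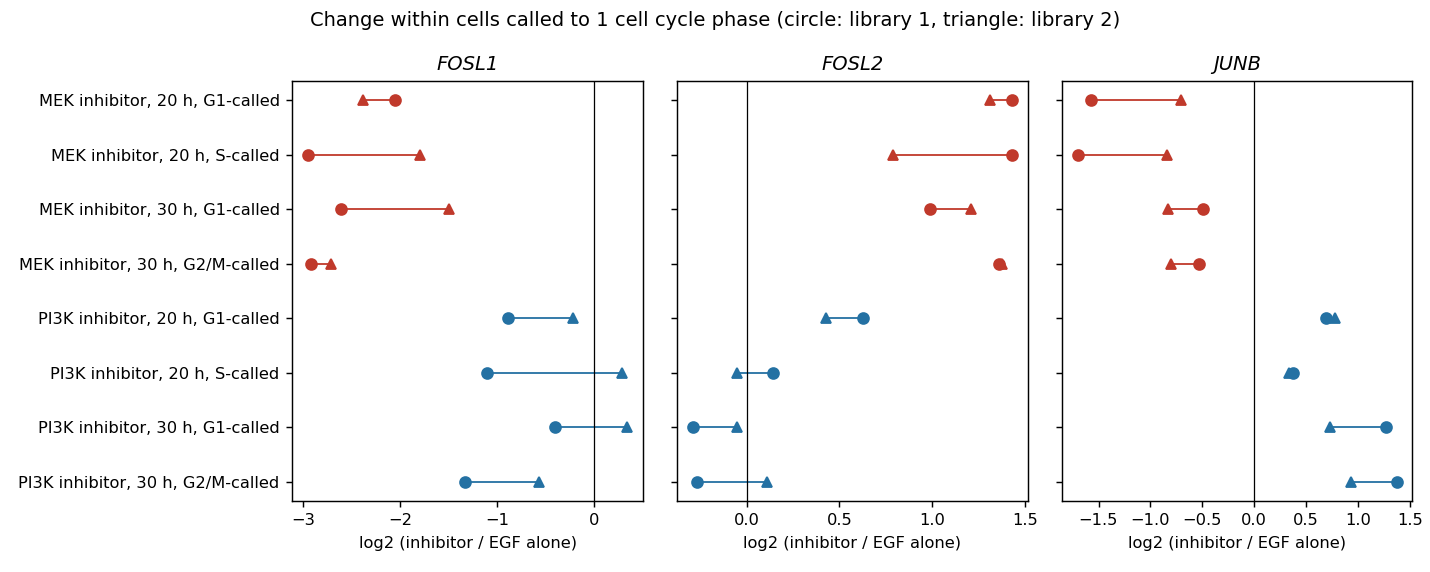
Log2 ratio of CPM with an inhibitor against EGF alone among cells called to the same cell cycle phase, for FOSL1, FOSL2 and JUNB, with library 1 as circles and library 2 as triangles joined by a line, red for MEK and blue for PI3K. All MEK points of FOSL1 and JUNB lie below 0, all MEK points of FOSL2 and all PI3K points of JUNB lie above 0, and PI3K points of FOSL1 lie on either side.

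FOSB, JUN and ATF3 stood apart between the libraries. JUN was higher in library 2 by a median of 3.82-fold over the 8 conditions (2.12 to 5.86), ATF3 by 3.37-fold (2.39 to 5.02) and FOSB by 3.22-fold (2.47 to 6.48). They were at least 2-fold higher in library 2 in every condition, as were 17 of 11147 genes (0.153%), and with TMM scaling, which corrects for RNA composition, FOSB and ATF3 still were and JUN was not (0.0718% of all genes were). FOS stood at 1.69-fold, JUND at 1.84-fold, JUNB at 1.52-fold, FOSL1 at 1.25-fold and FOSL2 at 1.19-fold. The median of all genes tested was 0.22 on the log2 scale.

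Of 25 tested early response and dissociation genes outside the family, NFKBIA, the inhibitor of NF-kappaB, and PPP1R15A, a stress-induced phosphatase subunit, met the same 2-fold rule, and that list's median was 0.64 on the log2 scale. CXCL8, a chemokine with a known AP-1 site, was the single gene of 23 AP-1 targets that did. This comparison was added after the values had been seen. A library is also a biological replicate and a separate run of handling, tagging and capture, and these cannot be told apart.

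**Figure D5:**
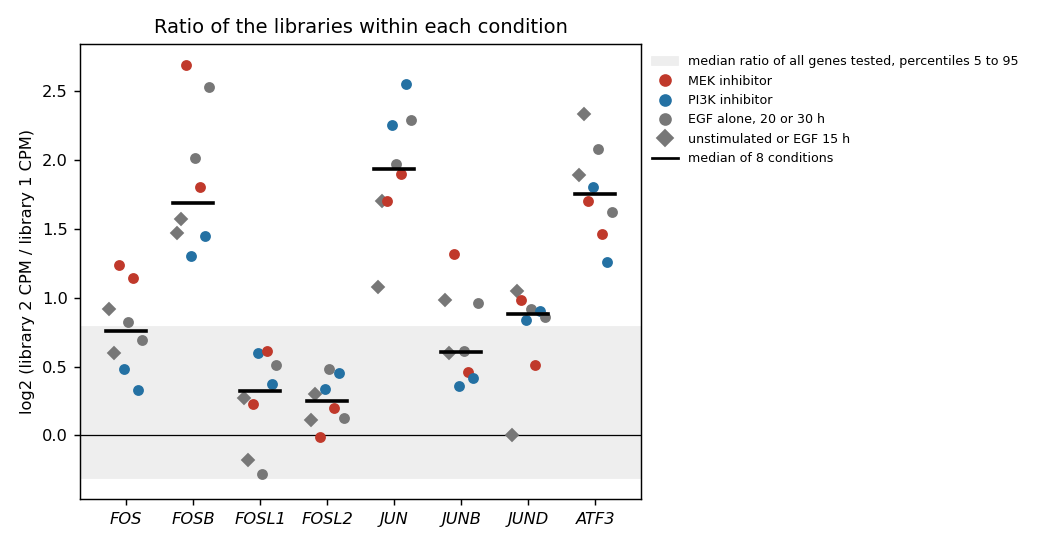
Log2 ratio of CPM in library 2 over library 1 for each of the 8 genes, with a point for each condition (red MEK inhibitor, blue PI3K inhibitor, grey circles EGF alone at 20 h or 30 h, grey diamonds unstimulated cells or EGF at 15 h), the median of 8 conditions as a bar, and in grey the 5th to 95th percentile of the median ratio over all genes tested (-0.31 to 0.79). All points of FOSB, JUN and ATF3 lie above that band. The medians of FOS, JUNB, FOSL1 and FOSL2 lie inside it at 0.75, 0.61, 0.32 and 0.25, and that of JUND lies above it at 0.88.

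Of genes with textbook AP-1 sites more fell than rose with the MEK inhibitor, and more rose than fell with the PI3K inhibitor at 30 h. With the MEK inhibitor 1 of 23 tested targets (32 were listed) rose and 10 fell at 20 h, where 5.15% of all genes rose and 7.4% fell, and 4 rose and 12 fell at 30 h, where 19.1% rose and 19.1% fell. ITGA2, a collagen-binding integrin chain, was at 4.25 ± 0.447 CPM with the MEK inhibitor at 20 h, against 28.3 ± 0.6 CPM with EGF alone (SD, n = 2; log2 change -2.71, adjusted p = 2.2e-15). CCND1, which encodes cyclin D1, was at 26.8 ± 1.86 CPM with the MEK inhibitor at 30 h, against 113 ± 30.8 CPM with EGF alone (-1.95, adjusted p = 7.4e-25). The median log2 change of the 23 targets was -0.49 at 20 h and -0.45 at 30 h, against 0.01 for all genes at each time.

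The PI3K inhibitor gave 5 targets higher and 3 lower at 20 h, where 11.6% of all genes rose and 12.3% fell, and 12 higher and 0 lower at 30 h, where 19.8% rose and 20.1% fell. The 3 lower at 20 h lie near the share of all genes. LAMB3, a laminin chain that is also a basal marker, was at 532 ± 65.8 CPM with the PI3K inhibitor at 30 h, against 114 ± 23.1 CPM with EGF alone (SD, n = 2; 2.45, adjusted p = 7.9e-25). MT2A, a metallothionein, was at 14574.7 ± 1365.5 CPM with the PI3K inhibitor, against 6033.9 ± 703 CPM with EGF alone (1.5, adjusted p = 0.017). CCND1 fell with this inhibitor too at 20 h (54.3 ± 7.85 CPM, against 163 ± 47.4 CPM with EGF alone; -1.40, adjusted p = 1e-16), and ITGA2 rose (52.9 ± 6.2 CPM, against 28.3 ± 0.6 CPM; 1.00, adjusted p = 4.1e-08). The median of the targets was 0.14 at 20 h and 0.45 at 30 h.

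Of 25 tested immediate early and stress genes outside the family, 2 rose and 7 fell with the MEK inhibitor at 20 h, where 5.15% of all genes rose and 7.4% fell, and 7 rose and 7 fell at 30 h, where 19.1% rose and 19.1% fell. With the PI3K inhibitor 11 rose and 2 fell at 20 h, where 11.6% of all genes rose and 12.3% fell, and 13 rose and 4 fell at 30 h, where 19.8% rose and 20.1% fell. The counts with the MEK inhibitor at 30 h are not far from the shares of all genes. EGR1, an immediate early zinc finger factor, was at 67.7 ± 9.5 CPM with the PI3K inhibitor at 30 h, against 9.48 ± 2.07 CPM with EGF alone (SD, n = 2; 3.11, adjusted p = 3.5e-31). IER2, another immediate early gene, was at 58.5 ± 31.1 CPM with the MEK inhibitor at 20 h, against 133 ± 24.9 CPM with EGF alone (-1.17, adjusted p = 0.00041; 0.17 without the library term). The heat shock genes HSPA1A and HSP90AA1 were among those that fell with the PI3K inhibitor, HSP90AA1 to 531 ± 81.7 CPM at 30 h, against 1423.4 ± 102 CPM with EGF alone (-1.19, adjusted p = 2.6e-12).

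Among 20 tested dimer partners from other leucine zipper families, 2 rose and 4 fell with the MEK inhibitor at 20 h (5.15% and 7.4% of all genes) and 5 rose and 1 fell at 30 h (19.1% and 19.1%). With the PI3K inhibitor 8 partners rose and 1 fell at 20 h (11.6% and 12.3% of all genes) and 3 rose and 0 fell at 30 h (19.8% and 20.1%). The partners that rose at 30 h are thus near the share of all genes with either inhibitor. ATF4, the effector of the integrated stress response, was at 118 ± 7.06 CPM with the PI3K inhibitor at 30 h, against 49.7 ± 13.3 CPM with EGF alone (SD, n = 2; 1.47, adjusted p = 2.1e-11).

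Of 22 kinases and ternary complex factors upstream of the family, 0 rose and 4 fell with the MEK inhibitor at 20 h (5.15% and 7.4% of all genes), and 3 rose and 9 fell at 30 h (19.1% and 19.1%). ELK3, a ternary complex factor, was at 10.7 ± 0.114 CPM with the MEK inhibitor at 20 h, against 45.9 ± 3.4 CPM with EGF alone (SD, n = 2; -2.04, adjusted p = 2.9e-16). MAP2K1, which encodes the target kinase MEK1 itself, was at 17.7 ± 2.57 CPM with the MEK inhibitor at 30 h, against 43.9 ± 13.1 CPM with EGF alone (-1.14, adjusted p = 4.9e-11). With the PI3K inhibitor 2 rose and 1 fell at 20 h (11.6% and 12.3% of all genes) and 4 rose and 2 fell at 30 h (19.8% and 20.1%), each under the share of all genes, ELK3 among the higher ones (0.56 at 30 h, adjusted p = 8.9e-05).

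Factors that shorten the life of AP-1 transcripts or proteins numbered 15. With the MEK inhibitor 1 rose and 4 fell at 20 h (5.15% and 7.4% of all genes) and 2 rose and 4 fell at 30 h (19.1% and 19.1%), the last 2 counts around the shares of all genes. With the PI3K inhibitor 3 rose and 1 fell at 20 h (11.6% and 12.3% of all genes) and 6 rose and 3 fell at 30 h (19.8% and 20.1%). ZFP36L2, which binds AU-rich transcripts and speeds their decay, was at 48.2 ± 12.3 CPM with the MEK inhibitor at 30 h, against 151 ± 25.6 CPM with EGF alone (SD, n = 2; -1.45, adjusted p = 3.5e-19). BTG1, an antiproliferative gene tied to deadenylation, was at 462 ± 14.4 CPM with the MEK inhibitor at 30 h, against 147 ± 6.83 CPM with EGF alone (1.83, adjusted p = 0.00035). HNRNPD, which encodes the AU-rich element binder AUF1, was at 91.7 ± 1.17 CPM with the PI3K inhibitor at 30 h, against 225 ± 4.14 CPM with EGF alone (-1.06, adjusted p = 2.2e-18).

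The genes whose pattern was most like that of each member were found by Pearson's r of log2 CPM over the 16 sums, each centred on its library's mean, among genes with at least 20 CPM in some condition. The sums share libraries and depth, so r is given as a description with no test. FOS and JUNB were each among the other's 3 most alike genes, with r = 0.944, and both had PHLDB2 in common (0.952 and 0.941). ZFP36, which shortens the life of such transcripts, completed the group for JUNB at 0.935, and IRS2, an insulin receptor substrate, that for FOS at 0.933. FOSL1 was most like BNC1, a zinc finger gene of basal keratinocytes (0.971), NAMPT (0.925) and TGFA, an EGF receptor ligand (0.924). FOSB was most like MYADM, SLC25A6 and CYR61 (0.917 to 0.924).

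FOSL2 was most like ETNK2, UQCRB and PSME1 (0.960 to 0.968), JUND like CHRNB1, BTG1 and H2AFJ (0.906 to 0.911) and ATF3 like LMO7, NEAT1 and RAB9A (0.911 to 0.935). Between members, FOSL2 ran with JUND (0.864) and JUN (0.835), FOSL1 ran against FOSL2 (-0.734), and FOSL2 and JUNB showed 0.024. The named genes depend on the choice of points: ranked over the 8 condition means, BNC1 stayed among the 3 for FOSL1, FOS and ZFP36 for JUNB, SLC25A6 for FOSB and H2AFJ for JUND, and none did for FOS, FOSL2 or ATF3.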

How the data were processed

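Per the labels, cells of each condition carried sample tags, were pooled, fixed in methanol and frozen. The deposited values are UMI counts per gene and cell, not normalised by the authors. The submitters' processing notes name Cell Ranger 3.0.2, Seurat and GRCh38; which annotation release, strand setting, tag-call rule and cell filter they used is not stated there. Conditions came from the deposited tag annotation, and only single-tagged cells were in the tables. Tag tables listed 8641 barcodes in library 1 (4848 called doublets, 616 negative) and 6161 in library 2 (2478 and 262). Doublets within a tag cannot be seen.

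Counts of the 16387 genes in both tables were summed per library and condition into 16 sums. These were fitted with edgeR 4.0.16 (robust quasi-likelihood F test, filterByExpr, TMM scaling; R 4.3.3, limma 3.58.1), with a term for the library as replicate block because, per the series' design text, each library is a biological replicate that pools all conditions. Deviations from condition means on 4727 genes correlated between conditions of a library with a median r of 0.587 (0.277 to 0.674, 28 pairs of conditions). Adjusted p is Benjamini-Hochberg over the 11147 genes tested in a comparison, with a threshold of 0.05, and 15 comparisons were made with 7 residual degrees of freedom. CPM uses library totals while log2 changes use TMM scaling, so they can differ slightly. Log2 values of single libraries used a prior count of 2. Cells are not replicates. With the library term, p-values measure how far differences between conditions vary between 2 libraries of a single cell line. A gap between the libraries that is common to all conditions is removed first, and the spread is moderated over genes (median prior degrees of freedom 100). The robust fit moderates genes of outlying spread less than that median. For EGF at 15 h against unstimulated cells edgeR gave FOS, FOSB, JUN and JUND adjusted p of 0.016, 0.04, 0.0039 and 0.0013. With a prior that is not robust these were 3.7e-08, 1.4e-06, 2e-11 and 1.6e-14. In a test on simulated counts of 10976 genes, set up like the 30 h comparison of MEK-inhibited cells with EGF alone, log2 changes of 0.5, 1 and 2 were called in 48.5%, 92.5% and 100% of the genes given them, as were 10 of 10776 genes left unchanged. Changes were given only to genes above a minimum CPM with EGF alone. Counts were drawn from the fitted model, so departures of the data from that model were not simulated.

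For shares and phases cells were thinned to 6500 UMIs, which left out shallower cells (12 to 53 per library and condition), with phases called by scanpy 1.11.5. Alternatives were DESeq2 1.42.0, no low-count filter, library totals, no library term, each library left out, the 10% of cells with most UMIs left out, thinned cells, conditions at 20 h and 30 h alone, and, added after the data had been seen, a prior that is not robust. All 8 members were named in each comparison, and from each list the 2 called genes with the largest rise and the 2 with the largest fall at a mean of at least 20 CPM were eligible. The members and lists were chosen with earlier results of these data known. A comparison of protein sequences was foreseen and not made here. A gene of the partner list and the genes most like JUN are not reported here.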

Additional observations from a re-analysis of the deposited data

Results flagged for a closer look

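JUNB stood out because its difference from EGF alone changed with time under the PI3K inhibitor, by 0.74 on the log2 scale between 20 h and 30 h (SE 0.19, adjusted p = 0.019, edgeR interaction). The difference was 1.5 at 30 h and 0.75 at 20 h, and both libraries gave the same direction, at 0.92 in library 1 and 0.69 in library 2. No other of the 8 genes was called in an interaction with time.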

How the results depend on the processing

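Of 45 calls of members over the 15 comparisons 15 held in every fit and 29 were lost in the fit without the replicate block. Those that held include FOSL1 and FOSL2 with the MEK inhibitor at both times, JUNB with the PI3K inhibitor at 30 h, and FOSL1 and JUNB between the inhibitors. Without the replicate block members called numbered 2 for MEK against EGF alone at 30 h (6 with it), 0 and 1 for PI3K at 20 h and 30 h (5 and 6), 2 between inhibitors at 20 h (4), 3 for EGF at 15 h (8), and 0 for the PI3K interaction (1), for EGF at 30 h against 20 h (1) and for PI3K at 20 h against 15 h (3). On library totals they numbered 3 for PI3K at each time and 0 for the PI3K interaction and for EGF at 30 h against 20 h, and JUN with PI3K at 20 h turned to -0.05. That scale shifts all genes by -0.177 (MEK 30 h), -0.143 (PI3K 20 h), -0.235 (PI3K 30 h) and 0.192 (EGF 15 h). With no low-count filter they numbered 6 for MEK at 20 h, 1 for the MEK interaction, 2 for EGF at 30 h against 20 h, 5 each for MEK and PI3K at 20 h against 15 h, 2 for MEK and 1 for PI3K at 30 h against 20 h. The prior that is not robust gave 5, 1, 2, 5, 6 and 2 for the first 6 of these. It also gave 7 for MEK at 30 h, 7 and 8 for PI3K at 20 h and 30 h, and 5 between inhibitors at each time. Conditions at 20 h and 30 h alone gave 5 for MEK at 20 h, 0 for the PI3K interaction and 2 for MEK at 30 h against 20 h. For EGF at 30 h against 20 h DESeq2 and the fit without the cells with most UMIs gave 0 each, and thinned cells gave 1 for PI3K at 30 h against 20 h. FOSL1 in G2/M-called cells with the MEK inhibitor at 30 h stood at -2.54 at 4000 UMIs per cell. No call of a member changed sign in either library alone. The cause of these shifts was not tested. FOSL1 with the MEK inhibitor and in unstimulated cells rests on 3 to 57 UMIs per library, which limits its precision.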

Other observations

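Within conditions the transcripts were found in the same cells about as often as separate shares give. FOS and JUN, the pair with the highest correlation of UMIs over cells thinned to 6500 UMIs, had a median r of 0.112 over 14 groups of cells (0.032 to 0.223), and 1269 cells held both where the product of their shares gives 1221.2. FOSB and JUN were found together in 650 cells, against 598.6 from the product of their shares. FOSL1 and FOSL2, which ran against each other over conditions, were found together in 65 cells, against 61.2, with a median r of -0.01. These are descriptions of sparse counts, with no test.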
